A study of Mus musculus with 9 samples.

Results

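The nuclear-encoded subunits of the mitochondrial respiratory chain and of ATP synthase were examined in mouse liver. Members were defined by name and class, from the 56748 rows of the gene table, with earlier results of these data known. They are protein-coding genes outside the mitochondrial chromosome. Their symbol begins with Nduf followed by a, b, c, s or v and a digit, with Uqcr, with Cox4 to Cox8 or with Atp5. Sdha, Sdhb, Sdhc and Sdhd also belong. This gave 88 genes among 21957 nuclear protein-coding genes, of which 37 belong to complex I, 4 to complex II, 8 to complex III, 21 to complex IV and 18 to complex V. Cox5b-ps, a copy of Cox5b that the table classes as protein-coding, is among those of complex IV, and reads may be divided between it and Cox5b. A further 17 rows matched by name but carry another gene class and were left out, and subunits with other names, such as Cyc1 and Ndufab1, are not covered by the rule.

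RNA of whole liver from mice labelled C57BL/6 (C57BL/6J in the design text) was sequenced in 9 libraries, 3 per group. Control mice were given water, DSS mice dextran sulfate sodium, which injures the colon, and Indirubin mice DSS together with indirubin, a poorly soluble bisindole dye of indigo-bearing herbs that is used against colitis. The design text describes chronic colitis from 3 cycles of 1.8% DSS and a dose of 1 g/kg/day of indirubin. It does not set the Control mice apart, so whether they had received DSS at any time is taken from their label, which names water alone.

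The respiratory chain passes electrons from NADH and succinate to oxygen through complexes I to IV in the inner mitochondrial membrane, and complex V uses the proton gradient so formed to make ATP. Hepatocytes, which spend much ATP on gluconeogenesis and urea synthesis, are rich in mitochondria. A few core subunits are encoded in the mitochondrial genome and all the others in the nucleus, so each complex except complex II draws on both genomes, and many nuclear genes of the chain are known targets of the factors NRF1, GABPA, YY1 and ESRRA.

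The promoters of the members were read from RefSeq (mouse, build GRCm38.p6, 250 bases before to 50 after each listed start), which held 74 windows for 69 of the 88 members. Both strands were searched for the letters GCGCANGCG (NRF1), CCGGAAG (GABPA and other ETS factors), AANATGGCG (YY1) and TCAAGGTCA (ESRRA). The NRF1 letters were in 28.4% of the members' windows, in 12.9% of the 9323 windows of genes tested in Indirubin against DSS and in 6.25% of all 32851 windows. The YY1 letters were in 13.5%, 5.28% and 2.38% of the same sets, and the ETS letters in 23.0%, 17.0% and 8.86%. Those of ESRRA were in 2.70%, 0.268% and 0.423%, where the members' value rests on only 2 of 74 windows. The median GC content of the windows was 57.5%, 60.7% and 52.7% in these sets. A match is a description of the letters and not a measured binding site. The stretches printed here lie before the start of 5 genes to which the results return, with the match in capitals. Ndufa5 lies at chr6:24527691-24527746 (minus strand) with 1 NRF1 match. Sdha lies at chr13:74350241-74350368 (minus strand) with 3 NRF1 matches. Ndufb11 lies at chrX:20617792-20617860 (minus strand) with 1 YY1 match. Ndufb7 lies at chr8:83566708-83566757 (plus strand) with 1 ETS match. Ndufa12 lies at chr10:94198935-94199034 (plus strand), where none of these letters was found.
Ndufa5: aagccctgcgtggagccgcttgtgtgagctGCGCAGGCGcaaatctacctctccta
Sdha: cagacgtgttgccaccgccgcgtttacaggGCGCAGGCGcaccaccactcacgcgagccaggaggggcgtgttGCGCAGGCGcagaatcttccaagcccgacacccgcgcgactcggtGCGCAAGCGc
Ndufb11: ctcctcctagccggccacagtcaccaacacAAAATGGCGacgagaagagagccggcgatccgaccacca
Ndufb7: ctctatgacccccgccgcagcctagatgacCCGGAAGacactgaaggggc
Ndufa12: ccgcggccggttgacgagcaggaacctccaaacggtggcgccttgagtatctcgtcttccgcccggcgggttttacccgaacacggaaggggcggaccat

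The libraries held 6514863 to 7944684 counts, of which 71.6% to 91.3% were from the mitochondrial chromosome, so 569044 to 2132208 nuclear counts remained, and 5476 to 20402 of these were from the members. All values were therefore scaled on nuclear counts. Normalized CPM are counts scaled to a common nuclear library total (CPM) after TMM scaling over the 9 libraries, always listed for replicates 1, 2 and 3. Hepatocyte markers were abundant in every library, with a summed level of 82981 to 114364 CPM in Control, 77182 to 99093 in DSS, and 82688, 53302 and 66266 in Indirubin. The liver label thus held, but other cell types moved with the Indirubin label. Pancreatic acinar markers summed to at most 146 CPM in 7 libraries and to 4776 and 6277 CPM in Indirubin replicates 2 and 3. Neutrophil markers summed to 209, 1584 and 578 CPM in Indirubin against 69.9 to 153 in DSS and 7.75 to 22.8 in Control, and markers of Kupffer cells and macrophages to 1392, 1435 and 1470 CPM against 876 to 1199 and 719 to 1031. Erythroid markers summed to 797, 1883 and 2236 CPM in Indirubin and at most 1220 in the other 6 libraries. Muscle markers summed to 58.4, 13.6 and 1322 CPM in Indirubin, at most 10.1 in DSS and at most 7.03 in Control. Endothelial markers summed to 406, 345 and 274 CPM in Indirubin against 142 to 182 in DSS and 168 to 294 in Control, and stellate markers to 737, 1324 and 1024 against 336 to 718 and 644 to 1180. The Indirubin libraries also held counts of more nuclear genes, 14433, 17355 and 15167 against 8271 to 13612 in the other 6. The part of these differences in the results was not tested. The group counts and medians are also given with Indirubin replicate 1 alone, whose acinar sum (58.4 CPM) lay within the range of Control, although its neutrophil, macrophage, endothelial, muscle and adipocyte sums and its number of genes lay above those of Control and DSS. Protein-coding genes under 1 kb, members left out, took 2.49% of nuclear counts in this library and 3.24% to 4.04% in the other 8. Of the 77 tested members, 18 are also under 1 kb.

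As a group, the members took a smaller share of nuclear RNA in the livers of indirubin-treated mice. Their summed counts made up 0.966%, 0.933% and 0.962% of nuclear counts in Control, 1.11%, 0.962% and 0.957% in DSS, and 0.906%, 0.809% and 0.746% in Indirubin. The mean share was 0.954% ± 0.0183 (SD, n = 3) in Control, 1.01% ± 0.0895 in DSS and 0.820% ± 0.0810 in Indirubin. The 3 Indirubin libraries, which also held counts of the most nuclear genes, lay below the other 6, and Control and DSS overlapped. Whether the wider range of genes detected bears on the share was not tested. With 3 libraries against 3, an exact permutation test cannot fall below p = 0.10, so no test was made of this single value. In RNA of a whole tissue, fewer cells of a type and less RNA per cell cannot be told apart.

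The share was split by complex in the plot of member share by library. Complex I, which oxidizes NADH, took 0.278%, 0.274% and 0.268% of nuclear counts in Control, 0.311%, 0.295% and 0.271% in DSS, and 0.241%, 0.206% and 0.209% in Indirubin. For this complex the 3 Indirubin libraries again lay below the other 6. Complex V, the ATP synthase, took 0.330%, 0.336% and 0.343% in Control, 0.407%, 0.317% and 0.337% in DSS, and 0.340%, 0.285% and 0.254% in Indirubin. Indirubin replicate 1 lay within the range of both other groups for complex V, and replicates 2 and 3 lay below it. Complex III took 0.110%, 0.106% and 0.0942% in Control, 0.106%, 0.115% and 0.113% in DSS, and 0.0948%, 0.0967% and 0.0779% in Indirubin, and complex IV 0.182%, 0.172% and 0.201%, then 0.226%, 0.196% and 0.192%, then 0.175%, 0.176% and 0.164%. For both, Indirubin lay below DSS and overlapped with Control, so of the 5 complexes only complex I had its 3 Indirubin libraries below all the other 6. Complex II, the succinate dehydrogenase, overlapped among all groups, with 0.0676%, 0.0445% and 0.0569% in Control, 0.0648%, 0.0389% and 0.0439% in DSS, and 0.0560%, 0.0454% and 0.0416% in Indirubin.

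**Figure D1:**
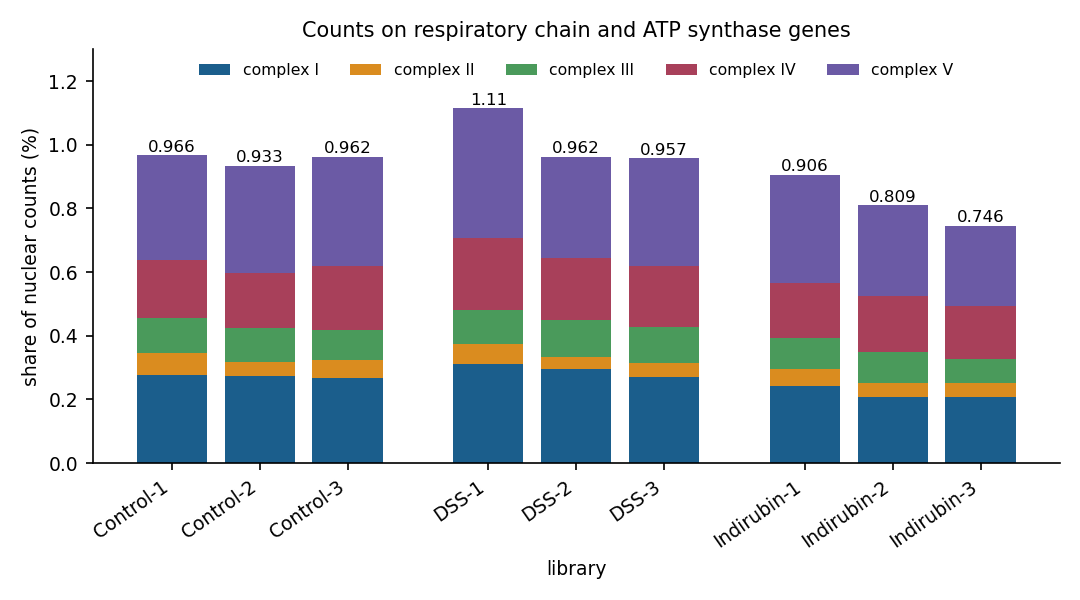
The vertical axis gives the members' counts as a percent of nuclear counts in each of the 9 libraries, split by complex I to V. The 3 Indirubin libraries reach 0.746% to 0.906%, below the 0.933% to 1.11% of the other 6.

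Relative to its mean over the 9 libraries on a log2 scale, the median member stood at 0.15, 0.27 and 0.02 in Control, 0.15, 0.14 and 0.48 in DSS, and −0.25, −0.11 and −0.31 in Indirubin. The median of all 6436 genes compared in this way stayed between −0.03 and 0.18. The transcripts of the mitochondrial genome did not follow this order. The 9 libraries held 823, 726 and 1041 mitochondrial protein-coding counts per member count in Control, 516, 712 and 264 in DSS and 913, 298 and 442 in Indirubin. On this ratio every DSS library lay below every Control library, the closest at 712 and 726, and Indirubin overlapped with both groups.

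Levels could be compared between members only per length, as normalized CPM per kilobase of the gene model averaged over the 9 libraries. Cox6a1, a liver-type subunit of cytochrome c oxidase (complex IV), was highest at 238 and ranged from 134 to 448 among libraries. Cox8a (234, 143 to 343) and Cox4i1 (229, 175 to 322), also of complex IV, overlapped with it, so their order was not separated by the spread. The highest member of complex III was Uqcr11 at 159 (79.1 to 271), beside Uqcr10 at 159 (84.1 to 247). In complex I it was Ndufa2 at 156 (62.7 to 249), beside Ndufa3 at 151 (75.8 to 336), and in complex V Atp5a1, the catalytic-hexamer subunit alpha, at 155 (118 to 219), beside Atp5b at 149 (121 to 176). None of these pairs was separated by the spread. In complex II it was Sdhd, a membrane anchor, at 98.3 (61.8 to 153), beside Sdhb at 42.7 (26.7 to 62.8). The median member stood at 114 in complex III, 98.0 in complex IV, 81.3 in complex V, 49.1 in complex I and 41.4 in complex II. The lowest tested member was Ndufs1, an iron-sulfur subunit of complex I, at 5.64.

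**Figure D2:**
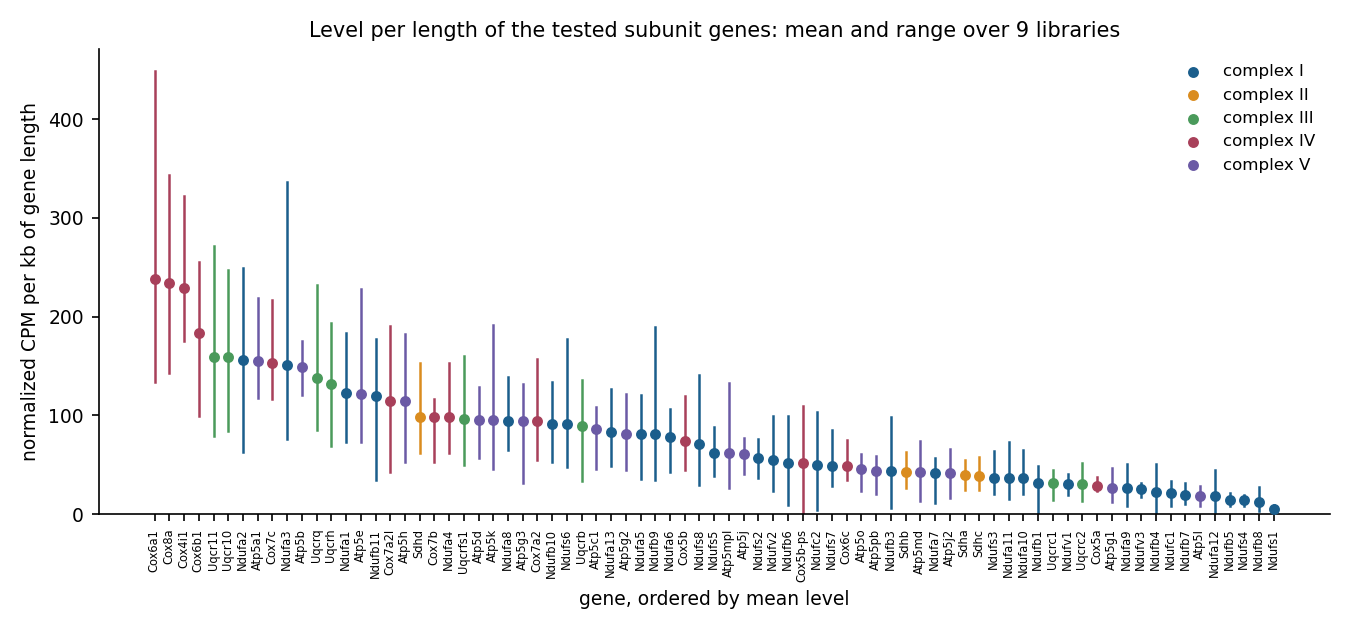
Each point is a tested member's mean normalized CPM per kilobase over the 9 libraries, with a line from the lowest to the highest library, coloured by complex and ordered by level. Cox6a1 is highest at 238, its line overlaps those of Cox8a and Cox4i1, and Ndufs1 is lowest at 5.64.

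The comparison of Indirubin with DSS asks what indirubin added to colitis. No member passed an adjusted p of 0.05 among the 9320 nuclear genes tested by edgeR, where the background was 0.0% of all genes, and DESeq2 called 1 member, Ndufa12, beside 1.08% of all genes. Of 88 members, 77 had enough counts to be tested. At an unadjusted p under 0.05, 12 members were lower and 0 higher in Indirubin, while 7.86% of all genes tested passed that level, 3.08% lower and 4.79% higher. In 17 members every Indirubin library lay below every DSS library and in 0 above, beside 5.76% and 11.1% of all genes. Among the 2281 other genes in the middle 80% of the members' average level, 6.62% were lower and 6.27% higher at that p. In that set 8.94% lay apart downward and 8.72% upward. The members' own shares were 15.6% lower at that p and 22.1% apart downward. Among the tested members 61 had a fitted value under 0 and 16 over 0, with a median log2 fold change of −0.49, whereas 41.8% of all genes lay under 0 and their median was 0.18. Without DSS replicate 3, the library in which the median member was highest relative to its own mean, the median was −0.29 and the unadjusted count 5. Without Indirubin replicate 2 that count was 6, and without Indirubin replicate 3 it was 7. With Indirubin replicate 1 alone the median was −0.53 and the count 4, and on nuclear library size alone, without TMM, they were −0.41 and 5.

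The members of 4 complexes shared this direction. The median log2 fold change in Indirubin against DSS was −0.56 in complex I (27 of 35 tested members lower, 8 at unadjusted p under 0.05), −0.50 in complex III (6 of 8 lower, 1 at that level), −0.35 in complex IV (11 of 13 lower, 0 at that level) and −0.50 in complex V (15 of 17 lower, 3 at that level). Complex II stood at −0.03, with 2 of 4 members lower. Within complex I, the 12 tested accessory subunits of the Ndufb and Ndufc series, which sit in the membrane arm, had a median of −0.80 with 11 lower. The core subunits of the NADH-oxidizing module had a median of 0.48, with Ndufv1 and Ndufs1 higher among the 3, and Ndufs1 rested on single DSS libraries, as given with its values. Within complex V, the 5 small membrane subunits had a median of −0.98, all 5 lower, and the F1 subunits −0.47. The 5 small subunits of complex III were all lower, with a median of −0.51. With Indirubin replicate 1 alone the medians were −0.59 in complex I, −0.02 in II, −0.49 in III, −0.44 in IV and −0.63 in V.

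**Figure D3:**
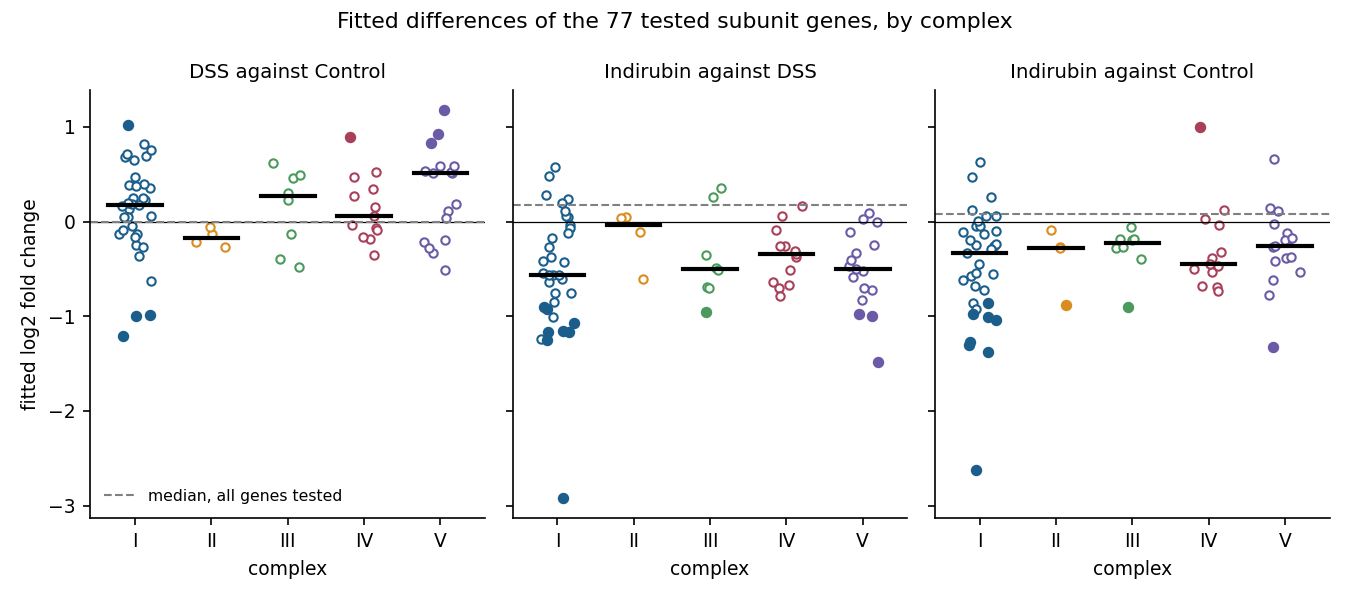
Each dot is a tested member and its fitted log2 fold change in 1 of the 3 comparisons, grouped by complex, filled where the unadjusted p is under 0.05, with a black bar at the complex median and a dashed line at the median of all genes. In Indirubin against DSS the medians of complexes I, III, IV and V lie between −0.56 and −0.35, while that of all genes lies at 0.18.

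Among complex I subunits, Ndufa12, an accessory subunit at the junction of the arms (chr10:94034582-94057305, plus strand, coordinates of the gene table), had the largest difference. Its normalized CPM were 38.8, 45.0 and 19.8 in Control, 22.9, 70.5 and 40.3 in DSS, and 11.0, 3.20 and 3.35 in Indirubin. Every Indirubin library lay below the other 6, which overlapped with each other. The fitted log2 fold change was −2.92 (SE 0.83, edgeR adjusted p = 0.383) against DSS and −2.63 (SE 0.81, edgeR adjusted p = 0.194) against Control, while DESeq2 gave an adjusted p of 0.0470 and 0.0369. The counts were low, at 30, 40 and 12 in Control, 29, 57 and 67 in DSS, and 9, 6 and 6 in Indirubin. A near-identical copy, Ndufa12-ps, held 32, 34 and 11 counts in Control, 26, 44 and 56 in DSS, and 26, 40 and 38 in Indirubin, and reads could be divided between both rows in the counting. Summed with the copy, the difference was −1.34 (SE 0.51, edgeR adjusted p = 0.519) against DSS and −1.15 (SE 0.48, edgeR adjusted p = 0.325) against Control. The sums, in CPM without TMM, were 80.1, 74.8 and 40.4 in Control, 50.5, 125 and 57.7 in DSS, and 49.9, 24.1 and 24.8 in Indirubin. Indirubin then overlapped with Control and lay just below DSS, so both the size and the separation of the Ndufa12 value are uncertain.

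Ndufa5, an accessory subunit of the matrix arm whose promoter stretch with an NRF1 match is printed above, stood at 78.9, 125 and 84.3 normalized CPM in Control, 96.4, 110 and 120 in DSS, and 56.2, 48.1 and 36.3 in Indirubin. All Indirubin libraries were under all others. The log2 fold change was −1.16 (SE 0.40, edgeR adjusted p = 0.459) against DSS and −1.04 (SE 0.39, edgeR adjusted p = 0.272) against Control. Ndufb11, a membrane arm subunit encoded on the X chromosome and bearing the YY1 letters, stood at 141, 134 and 126 in Control, 161, 147 and 105 in DSS, and 31.7, 56.6 and 76.5 in Indirubin. Its Control and DSS libraries overlapped and its Indirubin libraries lay below both. The log2 fold change was −1.25 (SE 0.44, edgeR adjusted p = 0.472) against DSS and −1.27 (SE 0.40, edgeR adjusted p = 0.198) against Control.

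Ndufa3, a small accessory subunit, stood at 140, 141 and 139 normalized CPM in Control, 132, 344 and 205 in DSS, and 106, 77.4 and 106 in Indirubin. Control varied little, DSS widely, and Indirubin lay below both, with a log2 fold change of −1.16 (SE 0.42, edgeR adjusted p = 0.490) against DSS. The core subunits Ndufs7 and Ndufs8 carry iron-sulfur clusters on the way to ubiquinone. Ndufs7 stood at 75.0, 105 and 77.7 in Control, 68.7, 147 and 118 in DSS, and 57.4, 48.1 and 62.0 in Indirubin, and Ndufs8 at 113, 76.6 and 124, then 71.1, 182 and 99.9, then 56.2, 66.2 and 37.4. For each of them the highest Indirubin library lay just below the lowest of the other 6. Against DSS the log2 fold change was −0.92 (SE 0.42) for Ndufs7 and −1.07 (SE 0.45) for Ndufs8, with edgeR adjusted p = 0.624 and 0.593.

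These 5 subunits with Ndufa12 and Sdhb were the 7 members whose Indirubin libraries all lay below the other 6, chosen after their values were seen. Ndufa12 is counted on its own row, and it overlapped with Control when summed with its copy. In this way 0 members lay above. Of the 7344 genes tested against both groups 2.64% lay below in this way and 4.23% above. Ndufb7 and Ndufc2, also of the membrane arm, were lower against DSS at an unadjusted p under 0.05, at −0.90 (SE 0.39) and −1.16 (SE 0.52). Other complex I members stood the other way, without passing any threshold. Ndufv1, which binds NADH, stood at 95.7, 83.3 and 76.0 in Control, 50.6, 64.3 and 83.1 in DSS and 107, 92.4 and 67.0 in Indirubin, so the groups overlapped, at 0.48 (SE 0.41) against DSS, or 0.23 without DSS replicate 1. Ndufs1 stood at 58.2, 23.6 and 77.7, then 74.3, 7.42 and 19.9, then 62.3, 42.7 and 44.1, at 0.57 (SE 0.71), or 0.06 without DSS replicate 2 and 1.75 without DSS replicate 1.

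**Figure D4:**
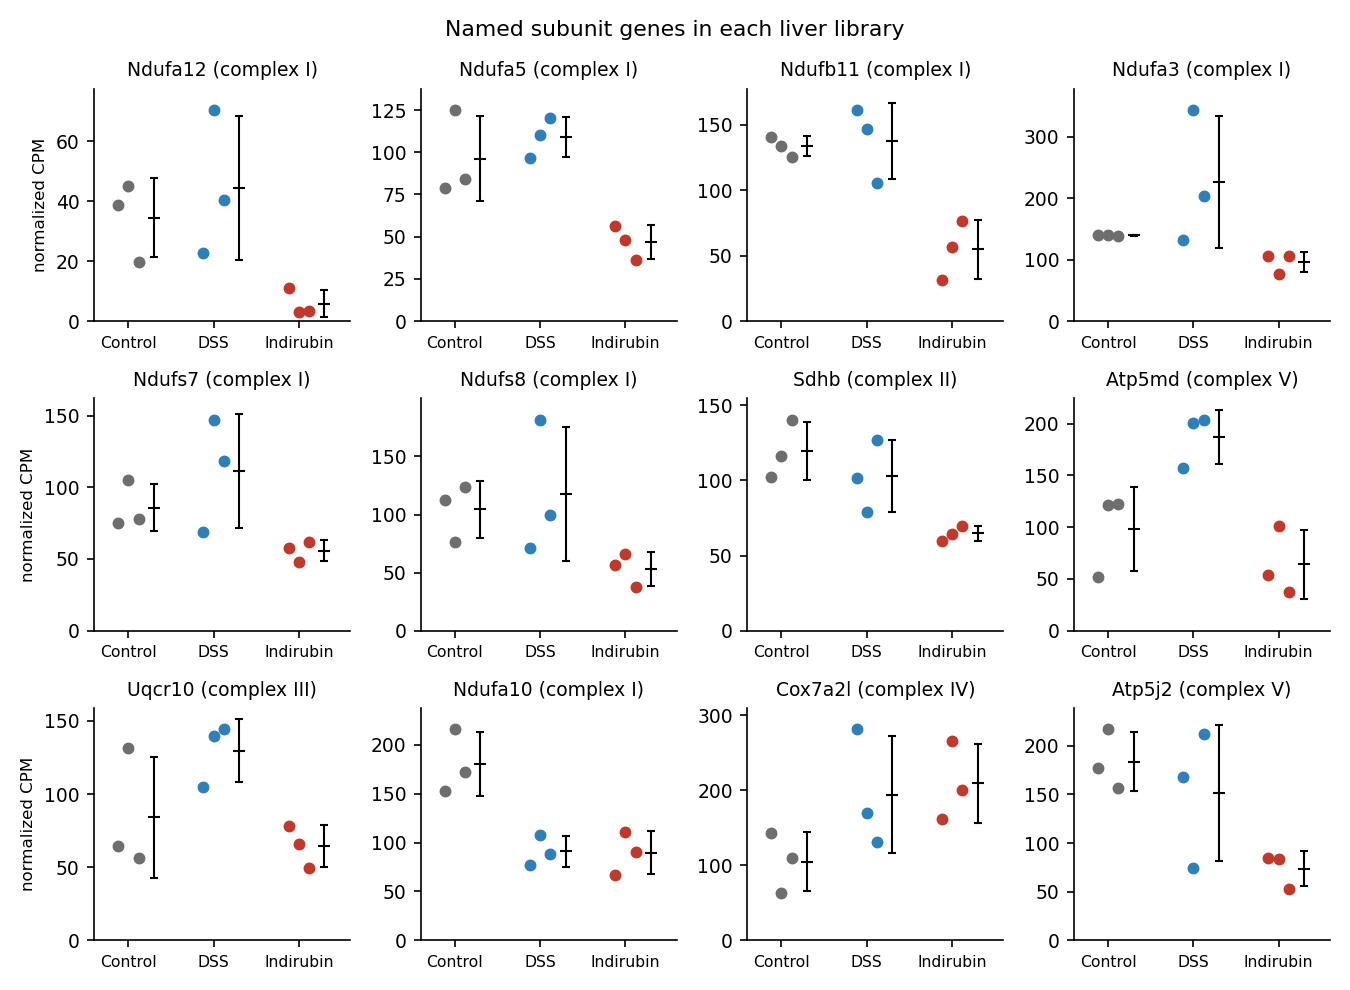
Each panel shows 1 member, with normalized CPM on the vertical axis, a dot for each library and a bar with the mean ± SD for the 3 libraries of Control, DSS and Indirubin. In Ndufa12, Ndufa5, Ndufb11, Ndufa3, Ndufs7, Ndufs8 and Sdhb the 3 Indirubin libraries are below the other 6.

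Complex II is the only respiratory complex without mitochondrially encoded subunits and is also an enzyme of the TCA cycle. Sdhb, its iron-sulfur subunit, stood at 102, 116 and 141 normalized CPM in Control, 102, 79.1 and 127 in DSS, and 59.8, 64.6 and 69.8 in Indirubin. The Indirubin libraries lay below the other 6, at −0.61 (SE 0.39, edgeR adjusted p = 0.830) against DSS and −0.88 (SE 0.35, edgeR adjusted p = 0.296) against Control. The other 3 subunits overlapped in every comparison. Sdha, the flavin-bearing subunit whose promoter holds 3 NRF1 matches, stood at 198, 176 and 187 in Control, 227, 98.9 and 137 in DSS, and 181, 153 and 132 in Indirubin. The membrane anchor Sdhc stood at 188, 93.4 and 132, then 122, 80.4 and 176, then 127, 129 and 84.3, and its partner Sdhd at 189, 110 and 76.0, then 107, 130 and 123, then 112, 116 and 125. Against DSS these 3 stood at 0.05, −0.11 and 0.04 on the log2 scale, signs that changed with the setting, and against Control at −0.27, −0.28 and −0.09. Against Control, Sdha lay at −0.16 without Indirubin replicate 3, Sdhc near 0 without Control replicate 1, and Sdhd turned sign.

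In complex III, which hands electrons from ubiquinol to cytochrome c, Uqcr10 is a small subunit that stood at 64.7, 132 and 56.2 normalized CPM in Control, 105, 140 and 144 in DSS, and 78.1, 65.7 and 49.1 in Indirubin. Indirubin lay below DSS and overlapped with Control, with −0.96 (SE 0.38, edgeR adjusted p = 0.562) against DSS. Uqcr11, also small, overlapped throughout, at 89.3, 131 and 67.8, then 174, 50.7 and 170, then 85.5, 94.0 and 57.5. The Rieske iron-sulfur protein Uqcrfs1 stood at 219, 127 and 107 in Control, 68.0, 110 and 148 in DSS and 114, 167 and 118 in Indirubin, and its groups overlapped, at 0.36 (SE 0.41) against DSS, or 0.01 without DSS replicate 1 and 0.66 without DSS replicate 3.

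In complex V the 3 members at an unadjusted p under 0.05 in Indirubin against DSS were small subunits of the membrane part, Atp5md, Atp5mpl and Atp5j2. The libraries did not overlap in Atp5md, in Atp5h and Atp5o of the peripheral stalk (−0.72 and −0.50) and in Atp5e of the F1 part (−0.82). Atp5md, which helps ATP synthase form dimers, stood at 51.7, 122 and 122 normalized CPM in Control, 157, 200 and 204 in DSS, and 53.7, 101 and 37.4 in Indirubin. DSS lay above both other groups, which overlapped, and the log2 fold change was −1.49 (SE 0.44, edgeR adjusted p = 0.383) against DSS. Atp5mpl, another small associated protein, stood at 32.3, 79.9 and 43.0, then 117, 74.2 and 161, then 56.2, 72.6 and 43.5. Its highest Indirubin library, at 72.6, was close to its lowest DSS library, at 74.2, and in the scale of the pairwise fit, which uses 6 libraries, they overlapped, at −0.98 (SE 0.43). Atp5j2, the f subunit, stood at 177, 217 and 157 in Control, 168, 74.2 and 212 in DSS, and 84.3, 83.8 and 52.5 in Indirubin. Indirubin lay below Control and overlapped with DSS, at −0.998 (SE 0.45) against DSS and −1.32 (SE 0.36, edgeR adjusted p = 0.142) against Control. DESeq2 called this last difference, with an adjusted p of 0.0437. Atp5a1, of the catalytic hexamer, stood at 550, 472 and 688 in Control, 424, 445 and 496 in DSS and 504, 437 and 370 in Indirubin, and overlapped in all comparisons, at −0.00 against DSS and −0.39 against Control, or −0.23 without Control replicate 3.

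The comparison of DSS with Control asks what colitis alone did, and here the members' median lay close to that of all genes. By edgeR 0 of the 77 tested members passed an adjusted p of 0.05, beside 44 of 6926 genes (0.635%), and by DESeq2 0, beside 1.79% of all genes. At an unadjusted p under 0.05, 5 members were higher and 3 lower in DSS, beside 3.54% and 4.26% of all genes, together 7.8%. The libraries lay apart upward in 6 members and downward in 3, beside 7.32% and 8.36% of all genes. The median log2 fold change was 0.17 (47 higher, 30 lower), against 0.00 for all genes (50.1% higher, 49.9% lower), and it was 0.51 in complex V, 0.27 in complex III, 0.18 in complex I, 0.06 in complex IV and −0.17 in complex II. Without Control replicate 3 the unadjusted count fell to 3, without DSS replicate 3 to 4 and without Control replicate 1 to 5, and the median ran from 0.10 without DSS replicate 3 to 0.31 without Control replicate 2.

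The members higher in DSS with the smallest p were subunits of ATP synthase. Atp5mpl differed by 1.18 (SE 0.45, edgeR adjusted p = 0.465) and Atp5md by 0.93 (SE 0.38, edgeR adjusted p = 0.560), or 0.61 without Control replicate 1. Atp5g2, which encodes subunit c of the membrane ring, stood at 111, 74.3 and 95.9 normalized CPM in Control, 175, 122 and 203 in DSS, and 138, 161 and 145 in Indirubin. Its DSS and Indirubin libraries overlapped and both lay above Control, at 0.83 (SE 0.35) for DSS and 0.66 (SE 0.34) for Indirubin. Cox7a2l, which joins complexes III and IV in supercomplexes, stood at 142, 63.0 and 109 in Control, 281, 169 and 131 in DSS, and 161, 265 and 200 in Indirubin. Only Indirubin lay wholly above Control, at 0.99 (SE 0.40, edgeR adjusted p = 0.306), and the value for DSS was 0.89 (SE 0.41), or 0.50 without DSS replicate 1. Ndufb9, an accessory subunit of the membrane arm, was higher in DSS by 1.02 (SE 0.44), or 0.59 without DSS replicate 3.

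Of the 77 members, 3 lay wholly below Control in both treated groups, which share the same Control libraries, and 1, Atp5g2, lay above in both. Among the 6529 genes tested in both comparisons these shares were 4.23% and 2.42%, so the members were near the background. The 3 lower genes are of complex I. Ndufa10, an accessory subunit of the membrane arm, stood at 153, 216 and 172 normalized CPM in Control, 76.7, 108 and 88.5 in DSS, and 67.2, 111 and 89.9 in Indirubin. Control lay above both, at −0.99 (SE 0.33, edgeR adjusted p = 0.367) for DSS and −1.01 (SE 0.36, edgeR adjusted p = 0.238) for Indirubin. Ndufs3, a core subunit, stood at 118, 96.8 and 139, then 49.8, 44.5 and 83.1, then 57.4, 66.8 and 70.3. Its differences from Control were −0.99 (SE 0.39) in DSS and −0.86 (SE 0.35) in Indirubin. Ndufa11, a membrane subunit, stood at 55.6, 79.9 and 57.9, then 17.4, 28.4 and 37.9, then 17.1, 43.8 and 16.7, with −1.20 (SE 0.50) and −1.30 (SE 0.51). In each of the 3 genes DSS and Indirubin overlapped, and between them the log2 fold changes were 0.05, 0.19 and −0.04.

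The comparison of Indirubin with Control joins colitis and indirubin. By edgeR 0 of 77 members passed an adjusted p of 0.05, beside 18 of 7553 genes (0.238%), while DESeq2 called 2, Ndufa12 and Atp5j2, beside 3.65% of all genes. At an unadjusted p under 0.05, 11 members were lower and 1 was higher, beside 6.91% and 6.37% of all genes, together 13.3%. In 22 members all Indirubin libraries lay below all Control libraries and in 2 above, beside 9.85% and 10.8% of all genes. Among the 2344 other genes in the middle 80% of the members' average level, 11.99% were lower and 7.64% higher at that p. In that set 14.33% lay apart downward and 9.64% upward, and the median was −0.06. The members' own shares were 14.29% lower at that p, close to that set, and 28.57% apart downward. The members' median was −0.28 with 64 members lower and 13 higher, against 0.08 for all genes, of which 46.3% were lower. On library size alone, without TMM, 56 were lower. All 8 members of complex III were lower, with a median of −0.23, and the medians were −0.34 in complex I, −0.28 in complex II, −0.45 in complex IV and −0.26 in complex V. Without Control replicate 2 the unadjusted count fell from 12 to 5, without Indirubin replicate 2 or 3 to 7, and with Indirubin replicate 1 alone it was 6 and the median −0.41. With that library alone the medians of complexes I to V were −0.51, −0.15, −0.23, −0.50 and −0.19. The median was −0.45 without Control replicate 3 and −0.23 without Control replicate 2, and its range under other settings is given at the end.

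Further members at an unadjusted p under 0.05 were Uqcrc1, a core protein of complex III, at −0.90 (SE 0.37), and Ndufb4, of the membrane arm, at −1.38 (SE 0.56). Uqcrc1 stood at 164, 179 and 136 normalized CPM in Control and 61.1, 73.7 and 121 in Indirubin. Ndufb4 stood at 33.6, 96.8 and 33.1 in Control and 20.8, 24.6 and 17.3 in Indirubin, and at −0.69 without Control replicate 2, its highest library. Both genes had lower Indirubin than Control libraries throughout and overlapped between Indirubin and DSS. Ndufa8, an accessory subunit near the membrane, had the third smallest p among those higher, at 55.6, 61.9 and 72.7 in Control and 120, 68.9 and 106 in Indirubin, with 0.62 (SE 0.38).

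Several subunits of complex IV exist in a form found in most tissues and one restricted to muscle, heart, lung, testis or brown fat. The widely expressed forms were abundant in every library. Cox6a1 stood at 181, 206 and 175 normalized CPM in Control, 152, 122 and 315 in DSS, and 153, 104 and 93.8 in Indirubin, with Indirubin below Control at −0.69 (SE 0.35). Cox6b1 stood at 138, 125 and 107, then 158, 174 and 181, then 85.5, 70.5 and 127, so DSS lay above both other groups, at −0.79 (SE 0.39) for Indirubin against DSS and 0.47 (SE 0.31) for DSS against Control. Against DSS the values for Indirubin were −0.67 in Cox7a2, −0.37 in Cox7b, −0.31 in Cox8a and −0.51 in Ndufa4, and against Control −0.47, −0.50, −0.45 and −0.74. Single libraries moved several of these values. Against DSS, Cox8a lay at −0.67 without DSS replicate 2 and near 0 without DSS replicate 3, Cox7b ran from −0.71 to −0.22 with libraries left out, Cox7a2 from −0.95 to −0.51 and Ndufa4 from −0.76 to −0.34. Against Control, Cox7a2 ran from −0.77 to −0.19, Cox7b from −0.81 to −0.27, Cox8a from −0.55 to −0.26 and Ndufa4 from −1.05 to −0.55. Cox4i1 stood at 0.03 against Control.

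The restricted forms had few or no counts and none was tested. The muscle form Cox6a2 had 4 counts in Control replicate 3, 93 in Indirubin replicate 3 and 0 in the other 7 libraries. Cox8b, its counterpart for subunit 8, had 0, 15 and 72 counts in Indirubin, and Cox7a1 1, 6 and 34 there with 10 in Control replicate 2. Indirubin replicate 3 also held 1409 counts of Acta1, 556 of Tnnt3, 152 of Mb, 103 of Ckm and 83 of Myl1, all genes of muscle fibres, while the muscle markers Myh4 and Tnnc2 had 0 counts in every library. In the plot of isoform counts, Cox6a2, Cox8b and Cox7a1 are highest in this library. The hypoxia-linked Ndufa4l2 had 2, 1 and 0 counts in Control, 14, 0 and 0 in DSS and 0, 8 and 29 in Indirubin. Cox4i2, known from lung, had 8, 2 and 0, then 10, 0 and 0, then 3, 0 and 0, Cox7b2 had 7 counts in DSS replicate 3, and the testis forms Cox6b2 and Cox8c had 0 throughout. Of 6 adipocyte markers, among them genes of brown fat, Adipoq, Ucp1 and Cidea had 0 counts throughout, Plin1 had 15, 0 and 2 counts in Indirubin and Cidec 17, 5 and 17 there and at most 5 elsewhere. The adipocyte sum was 45.6 CPM in Indirubin replicate 1 and at most 10.7 in every other library.

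**Figure D5:**
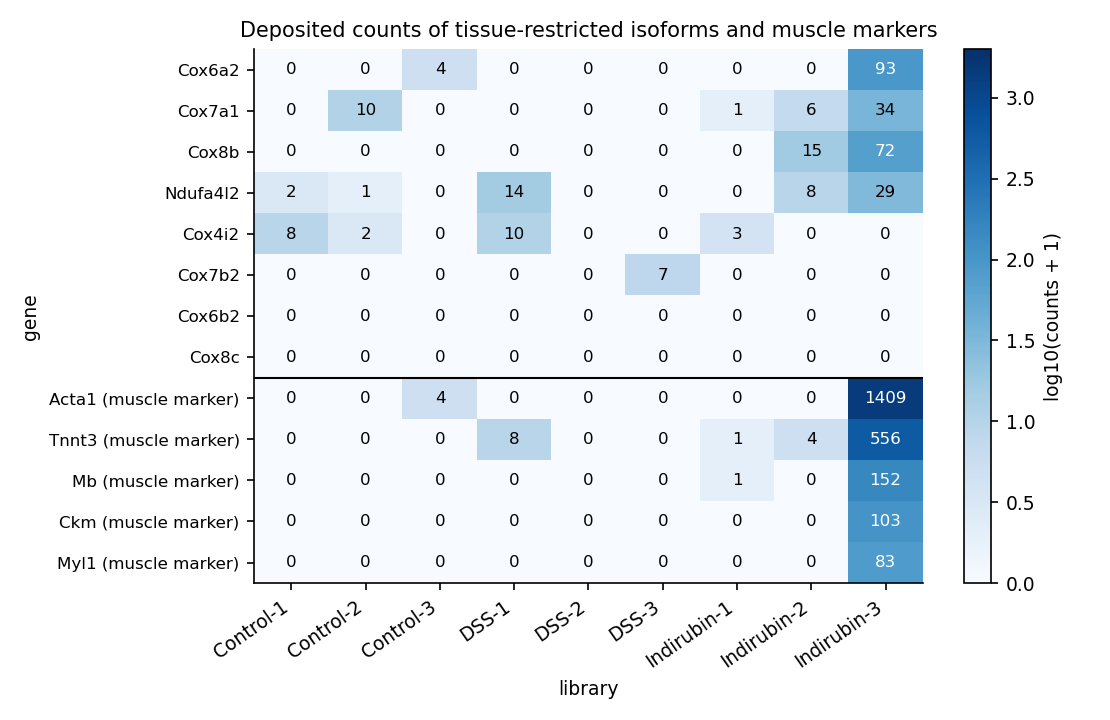
Rows are the tissue-restricted isoforms and, under the line, 5 muscle markers, columns are the 9 libraries, and each cell prints the raw count, shaded by log10 of the count plus 1. Cox6a2, Cox8b and Cox7a1 reach 93, 72 and 34 counts in Indirubin replicate 3.

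Gene length differed between members and the whole, since most are short. In Indirubin against DSS, members under 1 kb had a median log2 fold change of −0.70 with 16 of 18 lower, and 386 other genes under 1 kb had −0.04. Members of 1 to 2 kb had −0.51 with 26 of 31 lower, beside −0.06 for other genes of that length. Members of 2 to 4 kb had −0.12 beside 0.07, and members of 4 kb or more −0.41 beside 0.30. With the trend on length removed the members' median was −0.58. The 2281 other genes in the middle 80% of the members' average level had a median of −0.01. In DSS against Control, members under 1 kb stood at 0.43 with 16 of 18 higher, beside 0.20 for other genes of that length, and members of 1 to 2 kb at 0.23 with 21 of 31 higher, beside 0.15. Members of 2 to 4 kb stood the other way, at −0.25 with 13 of 19 lower, beside 0.04, and members of 4 kb or more at −0.04 with 5 of 9 lower, beside −0.06. Removal of the trend brought the members' median to 0.07 and the count at an unadjusted p under 0.05 from 8 to 5.

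Other sets of housekeeping genes were compared in the same fits. In Indirubin against DSS the median log2 fold change was −0.06 for 81 cytosolic ribosomal protein genes, −0.17 for 37 proteasome genes and −0.08 for 75 mitochondrial ribosomal protein genes, beside −0.49 for the members. No test was made of the difference between these sets. In DSS against Control the medians were 0.73, 0.29 and 0.14, with 75 of 80 ribosomal protein genes higher, beside 0.17 for the members. In Indirubin against Control they were 0.72, 0.03 and 0.09, beside −0.28. Ribosomal protein genes took 2.23% to 2.34% of nuclear counts in Control, 3.10% to 4.36% in DSS and 3.13% to 4.37% in Indirubin.

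The genes that build, feed and drain the chain were listed apart from its subunits, and in Indirubin against DSS none of them passed the adjusted test of edgeR. Of all genes tested 41.8% lay under 0, 3.08% were lower and 4.79% higher at an unadjusted p under 0.05, and the calls in lists this small are given as counts only. Of 54 listed assembly factors 42 were tested, with 26 lower, 0 at an unadjusted p under 0.05 and a median of −0.22. All 18 TCA cycle enzymes were tested, with 0 at that level and a median of 0.09. Genes of cytochrome c and ubiquinone synthesis had a median of −0.00 (13 tested of 16, 1 higher at that level), mitochondrial protein import 0.01 (21 of 22, 1 higher) and regulators of mitochondrial biogenesis 0.16 (12 of 17, 0 at that level). Carriers of nucleotides, phosphate and the outer membrane had 0.35, with all 7 tested genes over 0 and 1, Slc25a4, at that level. Against Control the medians for Indirubin were −0.32 for assembly factors, −0.17 for TCA cycle enzymes, −0.28 for cytochrome c and ubiquinone synthesis, −0.19 for import, 0.11 for the regulators and 0.44 for the carriers. For DSS against Control they were 0.15, −0.08, −0.02, −0.07, −0.17 and 0.13 in the same order.

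Among these, Slc25a4 encodes the ADP/ATP carrier of heart and muscle. It stood at 18.1, 24.8 and 26.4 normalized CPM in Control, 27.7, 4.95 and 29.5 in DSS, and 34.2, 52.3 and 318 in Indirubin, and so was highest in the library with the muscle markers. Its log2 fold change against DSS was 2.74 (SE 0.85), or 1.08 without Indirubin replicate 3. Against Control it was 2.55 (SE 0.75, DESeq2 adjusted p = 0.029), or 0.92 without that library. The electron donors to ubiquinone other than complexes I and II had a median of 0.08 against DSS (7 tested of 8), −0.56 in Indirubin against Control and −0.41 in DSS against Control. Within this list the electron transfer flavoprotein subunit Etfb stood at 34.2, 26.2 and 27.4 normalized CPM in Indirubin against 93.1 to 173 in Control and 125 to 249 in DSS. At −2.55 (SE 0.42, edgeR adjusted p = 0.189) against DSS, it was called by DESeq2, with an adjusted p of 0.000269, and it was also called by DESeq2 against Control, with an adjusted p of 0.000598. Prodh, the proline dehydrogenase of this list, stood at 64.7, 106 and 67.8 in Control, 19.8, 14.8 and 32.5 in DSS and 26.9, 35.2 and 31.8 in Indirubin, so Control lay above both. Its log2 fold change in DSS against Control was −1.81 (SE 0.50, edgeR adjusted p = 0.198), with a DESeq2 adjusted p of 0.0389.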

How the data were processed

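Liver RNA of 9 mice was sequenced on a DNBSEQ platform. The authors deposited a gene table whose columns hold raw read counts per gene, without normalization, on build GRCm39 per the submitters' processing notes. The aligner, the counting tool, the annotation and the use of strand are not given in the sources used here. The table also holds 9 deposited FPKM columns, and log2 fold changes, p-values and adjusted p-values of the authors' own comparisons, none of which was used, nor were 3 deposited lists of genes by group. The replicates are separate labelled libraries, and p-values measure only the spread between them.

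Rows of the mitochondrial chromosome were removed before library sizes were taken. Each comparison used its 6 libraries. Genes were kept by edgeR's filterByExpr (count minimum 10, total minimum 15), scaled by TMM and tested across all nuclear genes with edgeR's quasi-likelihood test (edgeR 4.0.16, limma 3.58.1, R 4.3.3), two-sided, with Benjamini-Hochberg adjustment over all nuclear genes tested and a threshold of 0.05. The SE was the absolute log2 fold change divided by the square root of F. A member was said to lie apart, or not to overlap, where all libraries of one group were beyond all of the other in the scale of that fit. Levels per kilobase used the gene length column of the deposited counts table. Log2 values per library used a pseudocount of 2 normalized CPM. At these depths a member of low level, such as Ndufa12, rests on few counts per library. The scripts were tested on simulated counts.

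Named members were chosen by rule: in each comparison those past the threshold or, where fewer than 3 passed in a direction, the 3 with the smallest p in it, the highest member of each complex per length, the tissue-restricted isoforms and their partners, and all Sdh genes. Of the other lists, at most 2 genes per direction with the smallest p could be named. Other members at an unadjusted p under 0.05, those apart from the other 6 libraries, those of complex V apart from DSS and those next in level, were named after their values were seen. The members and lists were chosen with earlier results of these data known. Alternatives were DESeq2 1.42.0 (its size factors and its Wald test), library size alone, mitochondrial genes kept in the scaling, no count filter, at least 10 counts in every library, all 9 libraries in one fit, a replicate block, a lowess trend on gene length removed (span 0.3, prior count 2) and each library left out in turn. Indirubin replicate 1 alone, for the group values, complexes and named members, and Ndufa12 summed with its copy, were added after seeing the data. Promoters came from RefSeq on GRCm38.p6, another build than that of the counts, and were matched by symbol.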

Additional observations from a re-analysis of the deposited data

How the results depend on the processing

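The median log2 fold change of the members kept its direction in each comparison under every alternative run, from −0.58 (length trend removed) to −0.39 (at least 10 counts in every library) for Indirubin against DSS, from 0.07 to 0.21 for DSS against Control and from −0.41 to −0.17 for Indirubin against Control. With each library left out in turn it ranged from −0.61 to −0.29, from 0.10 to 0.31 and from −0.45 to −0.23. The number of members at an unadjusted p under 0.05 depended on single libraries, from 5 to 15 against 12 for Indirubin against DSS, from 3 to 7 against 8 for DSS against Control and from 5 to 10 against 12 for Indirubin against Control. It was 5 on nuclear library size alone and 4 with Indirubin replicate 1 alone for Indirubin against DSS, 5 with the length trend removed for DSS against Control, and 6 with Indirubin replicate 1 alone for Indirubin against Control, with the lone library assumed to vary like the others. The cause was not tested. DESeq2 called 1 member in Indirubin against DSS, beside 101 of 9320 genes (1.08%), and 2 in Indirubin against Control, beside 276 of 7553 genes (3.65%). In all, edgeR called 0 genes in Indirubin against DSS with the filter and 149 without it.

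The replicate numbers gave no sign of pairing, as deviations of same-numbered libraries correlated at −0.03 to 0.03 over 9057 genes. This cannot exclude a pairing that acts on only part of the genes. With the replicate block the unadjusted counts were 8, 6 and 10 and the medians −0.43, 0.12 and −0.30, in the order of the comparisons above, and the block changed no adjusted call of a member.

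Of 1486 values of named genes under alternatives, 1417 kept sign and side of the threshold, 19 passed it newly and 50 turned sign, all with a main value of at most 0.27 in size. In Indirubin against DSS, Ndufa2 (0.06) was −0.051 without filter and −0.53 with Indirubin replicate 1 alone, and −0.42 to 0.49 with libraries left out. Sdhd (0.04) was −0.047 without filter, −0.023 with all 9 libraries in one fit, −0.039 with the length trend removed and −0.062 with Indirubin replicate 1 alone, and −0.12 to 0.068 with libraries left out. Atp5a1 (−0.00) was 0.070 on library size alone, 0.052 with at least 10 counts and 0.18 with Indirubin replicate 1 alone, and −0.17 to 0.091 with libraries left out. Sdha (0.05) was −0.024 without filter and −0.15 with the length trend removed, and −0.26 to 0.35 with libraries left out. Sdhc (−0.11) was 0.024 with Indirubin replicate 1 alone, and −0.46 to 0.21 with libraries left out. In DSS against Control, Sdhd (−0.06) was 0.033 with the replicate block, and Cox6a1 (0.06) was −0.016 on library size alone, −0.052 with the block and −0.14 with the length trend removed. With libraries left out, Sdhd ranged from −0.30 to 0.36, Cox6a1 from −0.44 to 0.32, Ndufa2 from −0.17 to 0.64, Ndufa4 from −0.46 to 0.058, Cox7a2 from −0.022 to 0.56, Cox7b from −0.16 to 0.079, Cox8a from −0.38 to 0.17 and Sdhc from −0.43 to 0.17. In Indirubin against Control, Ndufa2 (0.26) was −0.31 with Indirubin replicate 1 alone, and Sdhd (−0.09) was 0.0089 on library size alone, 0.027 with at least 10 counts and 0.010 with the block, and −0.35 to 0.31 with libraries left out. Cox4i1 (0.03) was −0.16 with Indirubin replicate 1 alone, and −0.18 to 0.15 with libraries left out.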
